A study of Anas platyrhynchos with 16 samples.

Results

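Shanma ducks are a strain of domestic duck (Anas platyrhynchos), and the hypothalamus of birds moved into cages was compared with that of birds that stayed in a floor-water system, which combines a floor with open water. The comparison takes the 8 hypothalamus libraries of the 16 RNA sequencing libraries in the series, chosen by their labels: caged libraries 1 to 4 and floor-water libraries 1 to 4. At sampling all birds were 113 days old. The caged group came from 15 ducks kept since day 110, that is for 3 days, in 3 cages of 100 × 45 × 50 cm under 16 h of light a day. The floor-water group came from 15 ducks under natural light. All birds received a commercial feed at room temperature. Housing and lighting therefore differ together and cannot be told apart. The labels say neither which cage a library comes from nor that each library is a separate bird, so a p-value here reflects library-to-library spread alone and that spread may be technical. Total counts were 39213327 to 58219259 in the caged and 38853215 to 59413096 in the floor-water libraries.

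The hypothalamus lies at the base of the brain around the third ventricle. Its neurons make peptide hormones that reach the pituitary below it through portal vessels or nerve terminals, and other neurons there govern feeding, stress responses, body temperature and reproduction. In birds it also reads day length: deep-brain photoreceptors and tanycytes, the glial cells lining the ventricle floor, set local thyroid hormone and thereby the reproductive axis. The pituitary stalk, the choroid plexus, the thalamus above and the midbrain behind adjoin it, so that what a dissected piece holds can differ between birds.

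Levels are given in CPM, counts scaled to a common library size with TMM factors, and 4 values in a row are libraries 1 to 4. Fold changes are log2 values of caged over floor-water libraries from edgeR's quasi-likelihood test, with Benjamini-Hochberg adjusted p-values over all genes tested. SE is the size of the fold change divided by the square root of the test's F statistic. It is not a standard error that edgeR reports. Of 15736 genes tested, 0 (0.0%) passed an adjusted p of 0.05 in edgeR, the smallest adjusted p being 0.281. At an unadjusted p under 0.05 there were 1463 genes (9.3%), 889 higher (5.65%) and 574 lower (3.65%) in caged libraries. The median fold change of all genes was 0.00 and 50.7% lay above 0. Upward genes were 60.8% of these 1463. Their share was 53.8% with quantile normalisation in limma-voom, 50.5% with the replicate block, 56.8% with array weights, 81.5% with all 16 libraries, 71.5% with upper quartile scaling, 74.1% in limma on log2(FPKM + 1) and 74.8% on log2(FPKM + 0.1). The limma fits on FPKM called 0 genes and 1 gene at an adjusted p of 0.05. All 4 caged libraries lay above or below all 4 floor-water libraries for 895 genes (5.69%), 534 higher (3.39%) and 361 lower (2.29%). DESeq2, run as an alternative, called 243 of 16434 genes (1.48%), 192 higher (1.17%) and 51 lower (0.31%). No gene below passed the threshold in edgeR, so values and directions are given as measured, and gene lists are described by counts and medians without a test. The 5.65% higher and 3.65% lower of all genes tested are the background for each list's percentages at an unadjusted p under 0.05. Genes shown for a list are mainly its 4 members with the smallest p. Where their groups do not overlap, this partly follows from that choice and is no separate support.

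The libraries differed in their levels of transcripts that are abundant in pituitary. GH1, growth hormone, was at 3060.4, 27.5, 2514 and 15437 CPM in the caged libraries, against 1088, 54.9, 200.3 and 291 CPM in the floor-water libraries. PRL, prolactin, was at 1264, 9.76, 2898 and 9554 CPM in the caged libraries, against 512, 22.5, 68.7 and 103 CPM in the floor-water libraries. POMC, the precursor of corticotropin and melanocortins, was at 809, 19.7, 1136 and 3218 CPM in the caged libraries, against 294, 8.74, 39.7 and 72.7 CPM in the floor-water libraries. All 3 were highest in caged library 4 and lowest in caged library 2 or floor-water library 2, so the groups overlapped. Pituitary hormone and lineage genes were kept where their mean CPM in pituitary was at least 20 times that in floor-water hypothalamus, which left 14. The level of each was expressed as a percentage of its mean in the 8 pituitary libraries. The median of these percentages over the 14 genes is called the pituitary share. It was 3.08%, 0.0881%, 4.92% and 17.4% in the caged libraries, against 1.04%, 0.0464%, 0.228% and 0.330% in the floor-water libraries. The mean log2 difference was 3.16 (two-sided exact permutation test over 70 assignments, p = 0.143, where the smallest possible p is 0.0286). The 14 genes were chosen partly for low levels in the floor-water group. That choice can enlarge this difference and lower its p, so neither is an unbiased contrast of the groups. In edgeR the log2 fold changes were 3.69 for GH1 (adjusted p = 0.492), 4.28 for PRL (adjusted p = 0.473) and 3.64 for POMC (adjusted p = 0.477). With the pituitary share as a covariate the fold changes were -1.05 for GH1, -0.88 for PRL and 0.00 for POMC, a description only, since the share is built from genes of this kind. In bulk tissue, fewer cells of a type and less RNA per cell cannot be told apart.

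They also differed in markers of the hypothalamus itself. NKX2-1, a homeodomain factor that specifies the ventral hypothalamus, was at 1.06, 3.51, 6.76 and 5.85 CPM in the caged libraries, against 1.80, 0, 0.204 and 0.0677 CPM in the floor-water libraries. FEZF1, a zinc finger factor of ventromedial hypothalamic neurons, was at 1.298, 5.27, 7.99 and 12.7 CPM in the caged libraries, against 6.97, 0.174, 0.579 and 0 CPM in the floor-water libraries. OTP, needed in mice for neurons that make oxytocin and vasopressin, was at 0.899, 2.31, 7.203 and 2.79 CPM in the caged libraries, against 5.02, 0, 0.426 and 0.525 CPM in the floor-water libraries. Floor-water libraries 2, 3 and 4 held the lowest values of all 3 genes, while floor-water library 1 lay within the range of the caged libraries. SIX6, a forebrain homeodomain factor, was at 0.599, 2.08, 13.1 and 4.22 CPM in the caged libraries, against 3.65, 0.480, 0 and 0.254 CPM in the floor-water libraries. FEZF2, related to FEZF1, was at 0.719, 0.573, 5.18 and 0.779 CPM in the caged libraries, against 1.44, 0, 0 and 0 CPM in the floor-water libraries. The same 3 floor-water libraries were lowest in both. A count of 0 allows up to 0.0508 to 0.0654 CPM in floor-water libraries 2, 3 and 4, taking 3 counts as the limit (counting error only). These factors were singled out after their values were seen.

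Over the list of 37 hypothalamic regional factors, 27, 33, 35 and 32 were at 1 CPM or more in the caged libraries, against 31, 20, 23 and 20 in the floor-water libraries. In all of floor-water libraries 2, 3 and 4 there were 14 of the 37 below 1 CPM, and 0 of the 37 were below 1 CPM in all 4 caged libraries. The first count covers 3 libraries and the second 4, so they are not like for like. Of those 14 genes, 4, 10, 14 and 9 reached 1 CPM in the caged libraries, against 9, 0, 0 and 0 in the floor-water libraries. The values of 0 are fixed by how the 14 were picked and are no result. Caged library 1 had fewer than floor-water library 1. The list had 33 of 37 members above 0 and a median of 0.93; 5 (13.5%) were higher and 0 lower at an unadjusted p under 0.05. The forebrain factor SIX3 was at 30.9, 20.7, 52.7 and 91.4 CPM in the caged libraries, against 21.1, 11.97, 10.2 and 16.2 CPM in the floor-water libraries (log2 fold change 1.72, SE 0.44, edgeR adjusted p = 0.375). It is 11.3 times higher in the pituitary libraries. NR5A1, which marks both the ventromedial nucleus and gonadotrophs, was at 12.4, 4.14, 24.1 and 75.4 CPM in the caged libraries, against 9.75, 1.003, 1.35 and 1.83 CPM in the floor-water libraries. Its order in the caged libraries, 4, 3, 1 and 2 from the highest, is that of the pituitary share. NR5A1 is a member of the genes that the share is built from, so this match is partly built in. TBX3, a factor of the mouse arcuate nucleus, was at 9.55, 9.15, 25.3 and 6.48 CPM in the caged libraries, against 4.605, 7.37, 6.63 and 4.73 CPM in the floor-water libraries (log2 fold change 1.11, SE 0.41, edgeR adjusted p = 0.473), highest in caged library 3. The mean log2(CPM + 1) of 34 factors that were under 4 times higher in pituitary gave a regional factor level of 2.05, 2.35, 2.97 and 2.46 in the caged libraries, against 2.46, 1.49, 1.73 and 1.70 in the floor-water libraries. The difference was 0.61 (two-sided exact permutation test, p = 0.0857, where the smallest possible p is 0.0286). The level was built after the values of these factors were seen, so this p is a description only. This level was added as a second covariate after the data were seen. The pituitary share and this level were both higher on average in the caged libraries. A fold change or median fitted with either covariate therefore cannot separate it from housing and is a description only.

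Markers of neighbouring regions varied among libraries too. TCF7L2, a factor of the thalamus, was at 416, 251, 216 and 113 CPM in the caged libraries, against 334, 572, 383 and 194 CPM in the floor-water libraries. GBX2, another thalamic factor, was at 82.8, 48.6, 89.5 and 54.8 CPM in the caged libraries, against 109, 169.9, 121 and 38.5 CPM in the floor-water libraries. Their ranges overlapped, and floor-water library 2 was highest in both. EN1, a homeodomain factor of the midbrain and anterior hindbrain, was at 0.939, 19.3, 0.492 and 1.13 CPM in the caged libraries, against 0.206, 0, 0.222 and 29.4 CPM in the floor-water libraries. TPH2, the neuronal enzyme of serotonin synthesis, was at 9.15, 76.4, 14.7 and 12.7 CPM in the caged libraries, against 11.1, 6.48, 7.11 and 82.0 CPM in the floor-water libraries. GRP, gastrin-releasing peptide, was at 21.1, 133, 5.73 and 6.83 CPM in the caged libraries, against 1.59, 0.741, 3.97 and 388 CPM in the floor-water libraries. Caged library 2 and floor-water library 4 stood apart from the other 6 libraries in these 3 genes, 1 library on each side. Over the list for thalamus, midbrain and hindbrain, 7 of 20 members lay above 0 and the median was -0.08; 0 were higher and 0 lower at an unadjusted p under 0.05. With the regional factor level as a covariate that median was 0.44. The genes of this paragraph were singled out after their values were seen. The part of regional make-up in the differences below was not tested beyond the values given beside them.

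**Figure D1:**
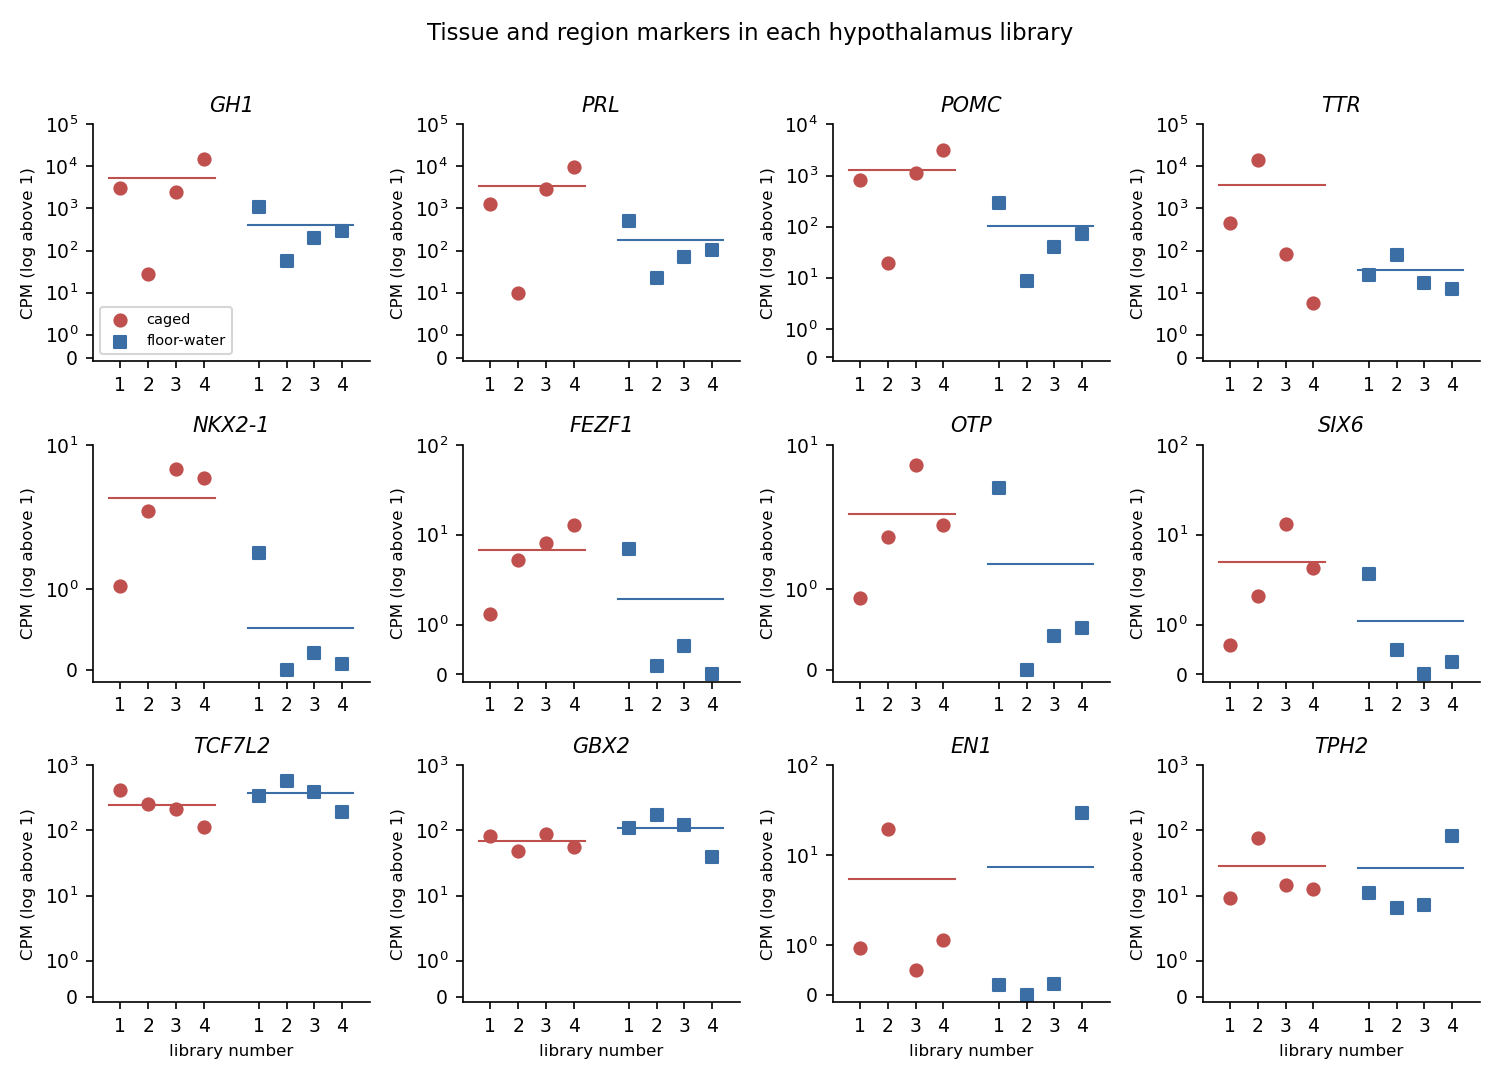
Levels of 12 marker genes in each hypothalamus library, in CPM on an axis that is linear from 0 to 1 and logarithmic above, with library numbers along the bottom. Red circles are caged and blue squares floor-water libraries, and lines are group means. GH1, PRL and POMC peak in caged library 4, TTR in caged library 2, and NKX2-1, FEZF1, OTP and SIX6 are lowest in floor-water libraries 2 to 4.

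Some transcripts of the choroid plexus, the epithelium that makes cerebrospinal fluid, were far more abundant in 1 library than in the others. TTR, transthyretin, was at 448, 14163, 84.7 and 5.78 CPM in the caged libraries, against 26.8, 78.7, 17.1 and 11.9 CPM in the floor-water libraries. KCNJ13, a potassium channel of that epithelium, was at 0.879, 11.97, 0.935 and 0.728 CPM in the caged libraries, against 0.746, 0.589, 0.716 and 0.135 CPM in the floor-water libraries, and was singled out after its values were seen. Caged library 2 was highest in both, and the groups overlapped. Other members were highest in other caged libraries. AQP1, a water channel of that epithelium, was at 17.9, 13.4, 15.4 and 6.88 CPM in the caged libraries, against 7.87, 6.06, 3.71 and 4.10 CPM in the floor-water libraries, highest in caged library 1 and overlapping. MSX1, a homeodomain factor, was at 0.959, 1.74, 0.623 and 1.83 CPM in the caged libraries, against 0.309, 0.305, 0.324 and 0.610 CPM in the floor-water libraries, highest in caged library 4 and without overlap. The list had 11 of 15 members above 0 and a median of 0.75, which was -0.17 without caged library 2; 5 (33.3%) were higher and 0 lower at an unadjusted p under 0.05. Summed choroid plexus CPM were 1224, 15287, 746 and 968 CPM in the caged libraries, against 998, 739.8, 833 and 1077 CPM in the floor-water libraries. The oligodendrocyte list stood the other way, 15 of 18 below 0 with a median of -0.20 (-0.33 to -0.01 when each library was left out). At an unadjusted p under 0.05, 1 (5.56%) was higher and 0 lower, the 1 gene being the iron carrier TF. TF was at 367, 2417, 256 and 268 CPM in the caged libraries, against 269, 271, 240 and 241 CPM in the floor-water libraries. It was highest in caged library 2, as TTR was, and the groups overlapped. Its log2 fold change was 1.70, and 0.29 without caged libraries 2 and 4. MBP, myelin basic protein, was at 5969.8, 5713, 6674 and 10134 CPM in the caged libraries, against 7745, 4512, 7526 and 13132 CPM in the floor-water libraries, with the highest value of each group in its library 4. Astrocyte genes had a median of -0.03 and GFAP, their intermediate filament, was at 1324, 2546, 1157 and 572 CPM in the caged libraries, against 942, 1232, 1004 and 1250.1 CPM in the floor-water libraries. Microglia, lymphocyte, endothelium and erythrocyte lists had medians of 0.17, 0.36, 0.15 and -0.31. When each library was left out they were 0.06 to 0.24 for microglia, 0.31 to 0.49 for lymphocytes, 0.09 to 0.18 for endothelium and -0.54 to -0.16 for erythrocytes. Of the endothelium list 12 of 18 members lay above 0. At an unadjusted p under 0.05, 1 (5.56%) was higher, PLVAP, which is 24.3 times higher in pituitary, and 2 (11.1%) were lower. Of the lymphocyte list 2 (15.4%) were higher, CD3E and BTK, and 0 lower. CD3E is 11.9 times higher in pituitary. Its log2 fold change was 1.88, against -0.24 with the pituitary share as a covariate. BTK has a pituitary ratio of 0.978, and its log2 fold change was 0.42, against 0.48 with that covariate. Of the microglia and erythrocyte lists 0 were higher and 0 lower. Summed endothelium CPM were 606 to 618 CPM in the caged libraries and 614 to 695 CPM in the floor-water libraries. Summed erythrocyte CPM were 368 to 679 CPM in the caged libraries and 443 to 702 CPM in the floor-water libraries. Both sums overlapped.

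Genes were also grouped by the ratio of their mean CPM in the 8 pituitary libraries to that in the 8 hypothalamus libraries. Of 87 genes at least 20 times higher in pituitary, 61 were higher and 0 lower in caged hypothalamus at an unadjusted p under 0.05, with a median fold change of 2.92. Of 871 genes 4 to 20 times higher in pituitary, 268 were higher and 0 lower, with a median of 0.65. Of 12661 genes within 4 times, 512 were higher and 403 lower, with a median of 0.00. Of 2117 genes at least 4 times higher in hypothalamus, 48 were higher and 171 lower, with a median of -0.16. With the pituitary share as a covariate the counts were 8 higher and 1 lower of 87, and 103 and 10 of 871. They were 417 and 317 of 12661, and 48 and 106 of 2117. Over all 15736 genes tested, the fit with this covariate had 576 higher and 434 lower. The share is built from pituitary-rich genes, so the fall in the pituitary-rich classes is partly built in and is a description only. Without caged library 4 the class counts were 25 and 0, 170 and 4, 496 and 397, and 79 and 156. Over all 16023 genes tested without that library, 784 were higher and 561 lower. The DESeq2 calls were 25 higher and 0 lower of 114 genes in the first class, 88 and 0 of 969 in the second, 71 and 27 of 13096 in the third and 8 and 24 of 2255 in the last.

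**Figure D2:**
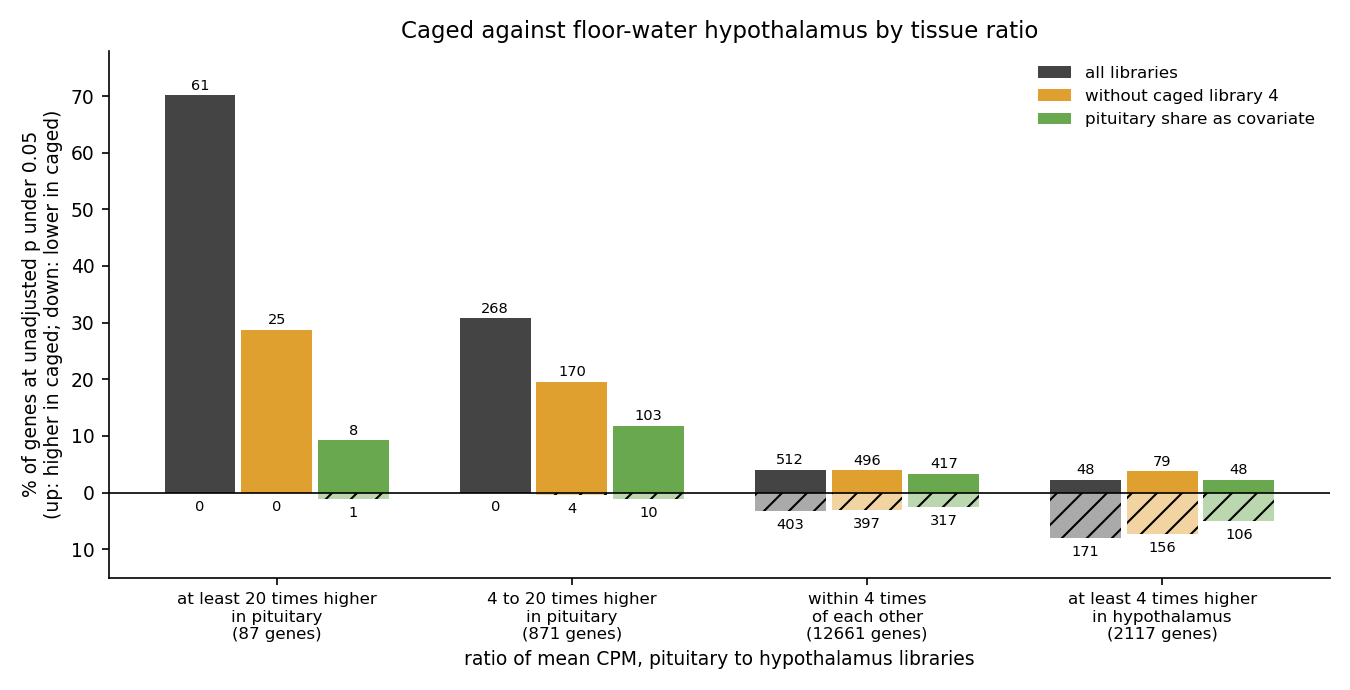
Percentage of genes at an unadjusted edgeR p under 0.05 in 4 classes of pituitary-to-hypothalamus ratio, upward for genes higher and downward (hatched) for genes lower in caged hypothalamus, with gene counts at the bars. Grey bars are all 8 libraries, orange bars the fit without caged library 4 and green bars the fit with the pituitary share as covariate. The class at least 20 times higher in pituitary has 61 of 87 genes higher with all libraries and 8 with the covariate. The share is built from pituitary-rich genes, so this fall is partly built in.

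Among genes whose libraries did not overlap, the smallest p-values upward were topped by GPX3, the secreted glutathione peroxidase that reduces peroxides (gene 101804134). It was at 491, 651, 570.3 and 569 CPM in the caged libraries, against 298, 344, 313 and 328 CPM in the floor-water libraries (log2 fold change 0.83, SE 0.10, edgeR adjusted p = 0.281). The lowest caged library exceeded the highest floor-water library, and caged library 2 had the highest level. GPX3 is 3.03 times higher in pituitary, and its fold change was 0.94 with the pituitary share as a covariate. The part of pituitary transcripts in its difference was not tested. BSPRY, a B-box and SPRY domain protein (gene 101793618), was at 45.3, 46.0, 46.8 and 47.8 CPM in the caged libraries, against 31.5, 27.8, 27.7 and 25.5 CPM in the floor-water libraries (log2 fold change 0.73, SE 0.10, edgeR adjusted p = 0.287). Its 4 caged values lay close together, all above the floor-water range. MSI1, the RNA-binding protein Musashi of neural progenitor cells, was at 86.1, 70.3, 93.6 and 80.2 CPM in the caged libraries, against 45.3, 48.4, 52.8 and 57.7 CPM in the floor-water libraries (log2 fold change 0.69, SE 0.12, edgeR adjusted p = 0.302), again without overlap. ANXA2, a calcium-dependent membrane-binding annexin, was at 130.1, 144, 206 and 146 CPM in the caged libraries, against 89.9, 85.8, 99.9 and 90.2 CPM in the floor-water libraries (log2 fold change 0.78, SE 0.15, edgeR adjusted p = 0.302), highest in caged library 3. RARRES1, a membrane protein induced by retinoic acid, was at 62.8, 83.0, 73.4 and 72.4 CPM in the caged libraries, against 48.7, 52.2, 45.1 and 52.0 CPM in the floor-water libraries (log2 fold change 0.56, SE 0.11, edgeR adjusted p = 0.307).

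The other genes of the 15 upward were EZR, MYO7A, CFAP74, RFX2, COL1A2, COL6A2, KAZALD1, CSF3R, WDR93 and PPP1R1C. EZR, ezrin, which ties actin to the membrane of microvilli, was at 50.3, 75.0, 72.5 and 97.8 CPM in the caged libraries, against 35.6, 29.5, 30.8 and 35.9 CPM in the floor-water libraries (log2 fold change 1.17, SE 0.19, edgeR adjusted p = 0.302). MYO7A, an unconventional myosin of microvilli and sensory hair bundles, was at 39.1, 48.1, 41.3 and 46.0 CPM in the caged libraries, against 24.3, 28.5, 22.3 and 29.8 CPM in the floor-water libraries (log2 fold change 0.73, SE 0.13, edgeR adjusted p = 0.302). CFAP74, a protein of the ciliary axoneme, was at 11.7, 10.4, 14.3 and 7.79 CPM in the caged libraries, against 5.30, 5.52, 4.69 and 4.64 CPM in the floor-water libraries, and RFX2, a transcription factor that drives ciliary genes, was at 27.5, 21.4, 27.2 and 27.5 CPM in the caged libraries, against 17.0, 15.4, 16.0 and 11.9 CPM in the floor-water libraries. Caged library 4 was lowest of its group for CFAP74 and caged library 2 for RFX2, yet both genes kept the groups apart. COL1A2, a chain of fibrillar type I collagen, was at 32.7, 81.8, 60.7 and 44.3 CPM in the caged libraries, against 23.0, 20.6, 18.0 and 15.2 CPM in the floor-water libraries (log2 fold change 1.52, SE 0.27, edgeR adjusted p = 0.302), highest in caged library 2. COL6A2, a chain of beaded-filament collagen VI, was at 4.03, 7.64, 7.02 and 8.14 CPM in the caged libraries, against 1.72, 1.61, 3.03 and 1.78 CPM in the floor-water libraries (log2 fold change 1.72, SE 0.31, edgeR adjusted p = 0.302). KAZALD1, a secreted Kazal-domain protein, was at 1.72, 4.20, 4.76 and 6.81 CPM in the caged libraries, against 0.669, 0.763, 0.648 and 0.728 CPM in the floor-water libraries (log2 fold change 2.63, SE 0.41, edgeR adjusted p = 0.302) and is 13.5 times higher in pituitary. CSF3R, the receptor for granulocyte colony-stimulating factor, was at 13.3, 13.6, 13.1 and 19.1 CPM in the caged libraries, against 8.08, 5.06, 3.31 and 4.91 CPM in the floor-water libraries. WDR93, a WD-repeat protein, averaged 11.2 ± 2.92 CPM in the caged libraries, against 3.83 ± 1.302 CPM in the floor-water ones, and PPP1R1C, an inhibitory subunit of protein phosphatase 1, averaged 8.51 ± 3.41 CPM in the caged libraries, against 3.06 ± 0.343 CPM in the floor-water ones (SD, n = 4 each). Of these 15 genes, 7 were at least 4 times higher in pituitary, namely COL6A2, KAZALD1, WDR93, EZR, COL1A2, BSPRY and CSF3R. The ratios of pituitary to hypothalamus ran from 1.04 to 20.8 over the 15. The fold changes of the 15 were 0.56 to 2.63, and 0.60 to 2.48 with the pituitary share as a covariate, 8 of the 15 being smaller with it. The 15 genes had adjusted p-values of 0.281 to 0.307 in edgeR.

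Downward, RUNDC1, a RUN-domain protein (gene 101791480), was at 34.6, 42.3, 40.5 and 28.6 CPM in the caged libraries, against 66.3, 76.9, 67.9 and 57.1 CPM in the floor-water libraries (log2 fold change -0.88, SE 0.15, edgeR adjusted p = 0.302). The highest caged library lay below the lowest floor-water library. RGS8, which speeds the shut-off of inhibitory G proteins in neurons, was at 242, 198, 166 and 215 CPM in the caged libraries, against 328, 453, 488 and 316 CPM in the floor-water libraries (log2 fold change -0.95, SE 0.17, edgeR adjusted p = 0.302). GPR158, an orphan receptor that binds RGS proteins, was at 301, 258, 290.0 and 240.5 CPM in the caged libraries, against 382, 367, 389.7 and 392 CPM in the floor-water libraries (log2 fold change -0.49, SE 0.09, edgeR adjusted p = 0.302). Both are far lower in pituitary, with ratios of 0.0141 and 0.0743, and caged library 4, the richest in pituitary transcripts, was lowest of its group for GPR158 but second highest for RGS8. Their fold changes were -0.97 and -0.44 without that library. GRM3, a glutamate receptor coupled to inhibitory G proteins, was at 148, 139.6, 151 and 144 CPM in the caged libraries, against 186, 184, 193 and 172 CPM in the floor-water libraries (log2 fold change -0.33, SE 0.08, edgeR adjusted p = 0.361). All 4 caged values of GRM3 lay below the floor-water range. NYAP2, a neuronal adaptor of phosphoinositide 3-kinase, was at 22.3, 25.6, 23.2 and 27.9 CPM in the caged libraries, against 42.2, 33.4, 42.6 and 47.9 CPM in the floor-water libraries (log2 fold change -0.75, SE 0.14, edgeR adjusted p = 0.302). CHN2, a Rac GTPase-activating chimaerin, was at 200.4, 176, 184 and 216 CPM in the caged libraries, against 286, 252, 281 and 234 CPM in the floor-water libraries, and SIPA1L2, a Rap GTPase-activating protein, was at 96.9, 78.1, 80.5 and 86.1 CPM in the caged libraries, against 130.3, 129, 126 and 108 CPM in the floor-water libraries. Neither overlapped between groups.

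The other downward genes were SLC38A1, MPC1, NQO2, B3GAT2, VCPIP1, TLL1, FRMD4B and CZH18orf25. SLC38A1, a glutamine transporter of neurons, was at 199.6, 187, 181 and 174 CPM in the caged libraries, against 247, 281, 253 and 239 CPM in the floor-water libraries (log2 fold change -0.46, SE 0.09, edgeR adjusted p = 0.302). MPC1, a subunit of the mitochondrial pyruvate carrier, was at 233, 228, 279 and 239 CPM in the caged libraries, against 346, 362, 347 and 285 CPM in the floor-water libraries (log2 fold change -0.45, SE 0.11, edgeR adjusted p = 0.361). NQO2, a quinone reductase, was at 25.2, 15.5, 21.4 and 24.6 CPM in the caged libraries, against 33.6, 34.3, 32.2 and 38.7 CPM in the floor-water libraries (log2 fold change -0.68, SE 0.16, edgeR adjusted p = 0.361), lowest in caged library 2. B3GAT2, a glucuronyltransferase that builds the HNK-1 carbohydrate on neural glycoproteins, averaged 61.2 ± 6.51 CPM in the caged libraries, against 87.1 ± 10.1 CPM in the floor-water ones. VCPIP1, a deubiquitinase, averaged 162 ± 5.43 CPM in the caged libraries, against 204 ± 8.76 CPM in the floor-water ones (SD, n = 4 each). TLL1, a tolloid-like metalloprotease, was at 7.75, 7.56, 8.04 and 7.94 CPM in the caged libraries, against 14.9, 16.6, 14.7 and 10.2 CPM in the floor-water libraries, the caged values lying close together below the floor-water range. FRMD4B, a FERM-domain scaffold, averaged 7.35 ± 0.514 CPM in the caged libraries, against 13.05 ± 1.35 CPM in the floor-water ones, and CZH18orf25 averaged 18.2 ± 3.23 CPM in the caged libraries, against 27.5 ± 1.26 CPM in the floor-water ones (SD, n = 4 each). Of these 15 genes, 7 were at least 4 times higher in hypothalamus than in pituitary. Their fold changes were -0.95 to -0.33, and -0.91 to -0.34 with the pituitary share as a covariate, 6 of the 15 being smaller in size with it. The 15 genes had adjusted p-values of 0.302 to 0.361 in edgeR. The rule picked these 30 genes for small p and absence of overlap, from 353 eligible genes upward and 298 downward, so their separation is a property of the rule. In DESeq2 30 of the 30 passed an adjusted p of 0.05, 27 did without caged library 4 and 20 with the pituitary share as a covariate. These fits use the same counts that picked the genes and are no separate support.

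**Figure D3:**
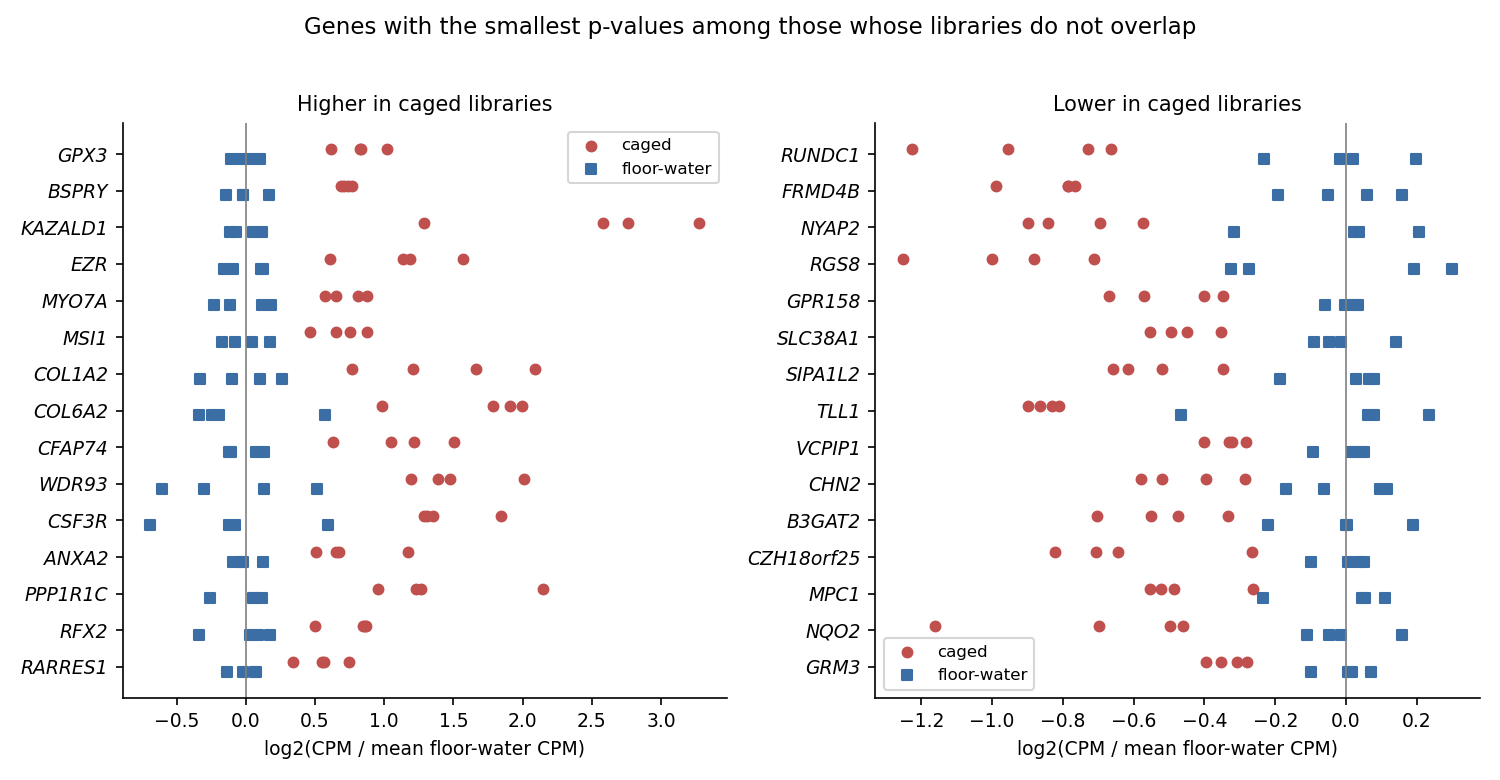
Each library's CPM of the 15 genes with the smallest p-values in each direction among genes whose groups do not overlap, as log2 of the ratio to the mean of the floor-water libraries. Red circles are caged and blue squares floor-water libraries, 4 each, and genes run from the smallest p at the top. Caged values spread most for KAZALD1 and COL1A2 and least for BSPRY and TLL1 among these 30 genes.

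Peptides that hypothalamic neurons send to the pituitary differed widely among the libraries of each group. CRH, corticotropin-releasing hormone, which starts the stress axis, was at 56.1, 31.6, 32.8 and 11.9 CPM in the caged libraries, against 83.7, 128, 93.0 and 29.8 CPM in the floor-water libraries (log2 fold change -1.34, SE 0.50, edgeR adjusted p = 0.48). The caged libraries held 3 of the 4 lowest values, and floor-water library 4 fell among them. With the pituitary share as a covariate the CRH fold change was -0.94. TRH, thyrotropin-releasing hormone, was at 20.05, 16.2, 68.8 and 46.8 CPM in the caged libraries, against 65.0, 2.05, 4.31 and 14.3 CPM in the floor-water libraries. SST, somatostatin, which inhibits growth hormone release, was at 93.5, 149, 166 and 159 CPM in the caged libraries, against 134, 35.5, 86.3 and 121 CPM in the floor-water libraries. VIP, the peptide that drives prolactin release in birds, was at 60.1, 111, 68.1 and 31.9 CPM in the caged libraries, against 72.9, 129, 79.8 and 126 CPM in the floor-water libraries. The ranges of TRH, SST and VIP overlapped. A gene annotated as vasotocin-neurophysin VT, LOC113843450 (a gene added once its levels were known), the avian counterpart of vasopressin, was at 173, 4.79, 418 and 82.4 CPM in the caged libraries, against 471, 109, 88.3 and 3.96 CPM in the floor-water libraries, lowest in caged library 2 and floor-water library 4. AVP, OXT, GNRH1, HCRT and OPN5 had no entry under these symbols among the genes tested and are not analysed here.

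NPVF encodes the gonadotropin-inhibitory hormone of birds and was at 18.5, 1.78, 408 and 192 CPM in the caged libraries, against 124, 0.262, 1.60 and 2.10 CPM in the floor-water libraries. GAL, galanin, was at 7.21, 34.7, 164 and 84.8 CPM in the caged libraries, against 41.2, 1.88, 2.27 and 1.10 CPM in the floor-water libraries. PDYN, the dynorphin precursor, was at 36.5, 84.8, 89.2 and 133 CPM in the caged libraries, against 91.6, 11.8, 11.3 and 21.5 CPM in the floor-water libraries. Each of the 3 was far lower in floor-water libraries 2, 3 and 4 than in floor-water library 1, as were the regional factors named above. UCN3, urocortin 3, a ligand of the second CRH receptor, was at 16.4, 7.31, 111 and 9.74 CPM in the caged libraries, against 33.4, 0.938, 2.76 and 5.86 CPM in the floor-water libraries, with the same 3 floor-water libraries lowest. PMCH, melanin-concentrating hormone of the lateral hypothalamus, was at 0, 4.83, 1.36 and 8.51 CPM in the caged libraries, against 2.65, 0, 0.0682 and 0 CPM in the floor-water libraries, and AGRP, the hunger peptide of arcuate neurons, was at 0, 0.898, 14.2 and 0.201 CPM in the caged libraries, against 0.617, 0.414, 0.341 and 0 CPM in the floor-water libraries. Both were listed at 0 counts in some libraries of each group, and AGRP stood out in caged library 3 alone. NPY, made in the same arcuate neurons but also in many other brain regions, was at 84.4, 17.6, 229.7 and 103 CPM in the caged libraries, against 280.2, 341, 162 and 53.5 CPM in the floor-water libraries, with no such pattern. CARTPT, the anorexigenic transcript, was at 1.24, 5.02, 3.05 and 2.13 CPM in the caged libraries, against 2.11, 2.70, 3.53 and 2.95 CPM in the floor-water libraries. PDYN and UCN3 were singled out after their values were seen. Over the list of neuropeptides 21 of 31 lay above 0 with a median of 0.27, which was 0.00 with the regional factor level as a covariate; 1 (3.23%) was higher and 1 (3.23%) lower at an unadjusted p under 0.05, namely POMC and CRH. For the feeding list 4 (18.2%) were higher and 0 lower at an unadjusted p under 0.05. It had a median of 0.35, against -0.08 with that covariate.

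**Figure D4:**
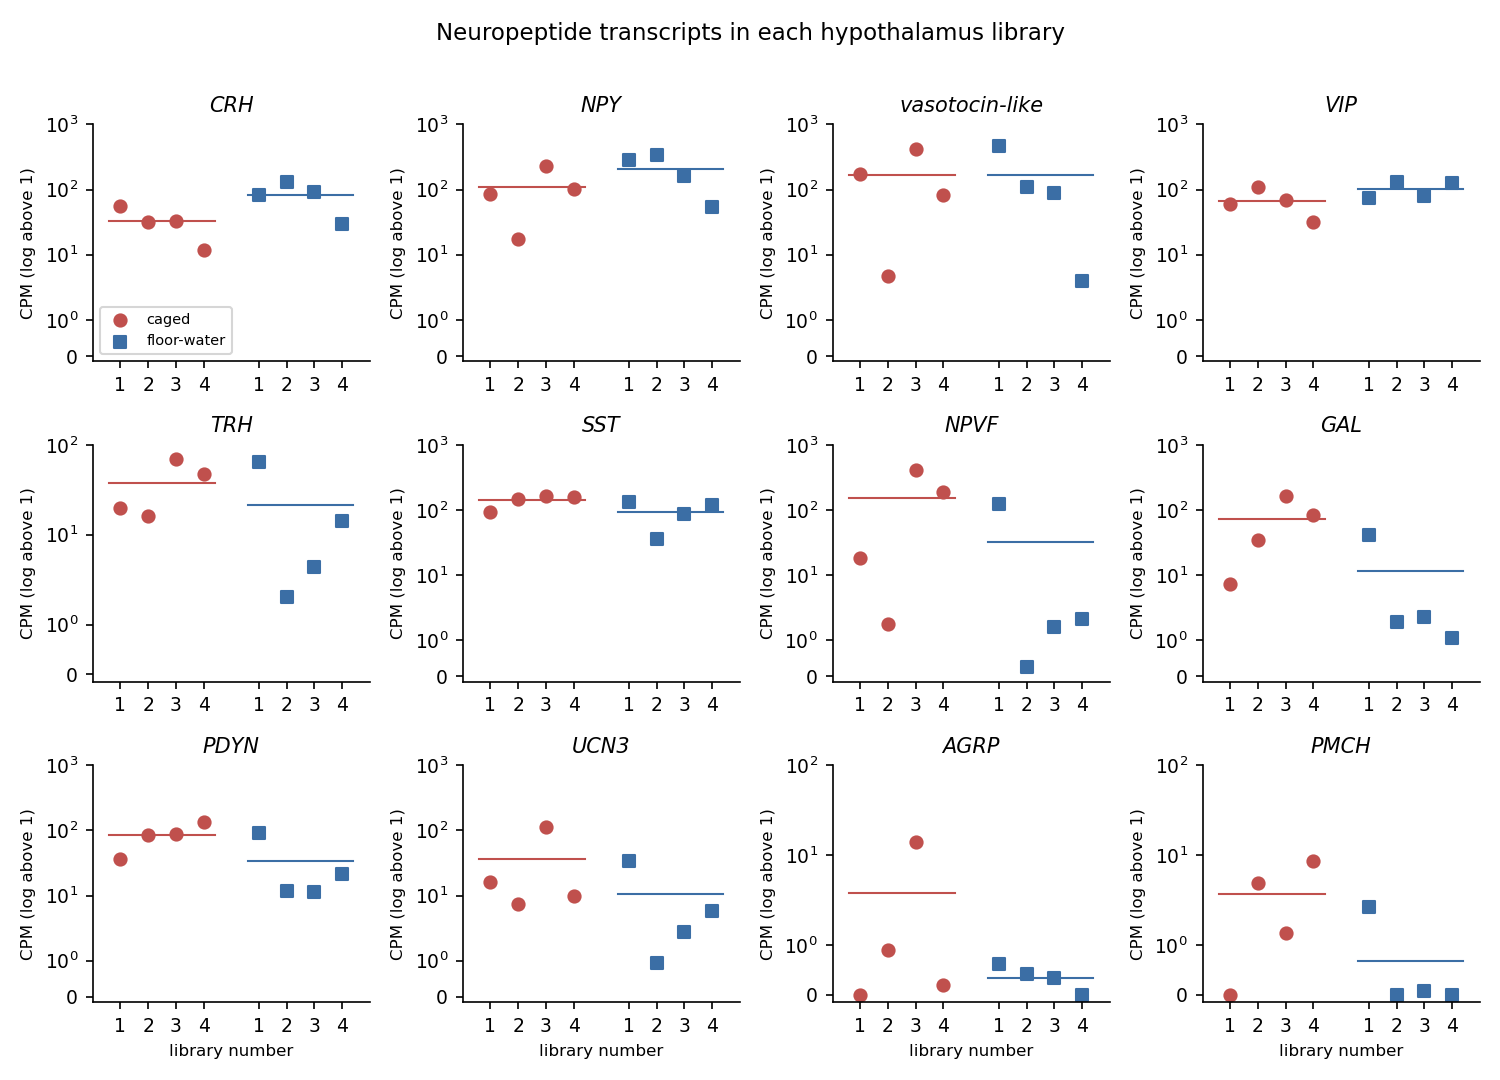
Levels of 12 neuropeptide transcripts in each hypothalamus library, in CPM on an axis that is linear from 0 to 1 and logarithmic above, with library numbers along the bottom. Red circles are caged and blue squares floor-water libraries, and lines are group means. GAL, PDYN and UCN3 are lowest in floor-water libraries 2 to 4, NPVF is low there and in caged library 2, and CRH, VIP and SST are above 10 CPM in every library.

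Of 37 receptors for these peptides tested, 28 lay above 0 with a median of 0.36, and 8 (21.6%) were higher and 0 lower at an unadjusted p under 0.05. OXTR, the receptor of the oxytocin family (mesotocin in birds), was at 2.08, 8.56, 3.61 and 3.31 CPM in the caged libraries, against 1.23, 1.26, 1.18 and 1.90 CPM in the floor-water libraries (log2 fold change 1.65, SE 0.44, edgeR adjusted p = 0.375). Its lowest caged library lay above every floor-water library. Its mean in pituitary was 0.996 times its mean over all 8 hypothalamus libraries. That hypothalamus mean includes the higher caged values, so the ratio does not compare pituitary with floor-water hypothalamus. The part of pituitary transcripts in the OXTR difference was not tested. LEPR, the leptin receptor, was at 3.24, 2.27, 4.58 and 20.9 CPM in the caged libraries, against 1.18, 0.502, 1.53 and 0.135 CPM in the floor-water libraries (log2 fold change 3.21, SE 0.90, edgeR adjusted p = 0.381), and AVPR1B, the vasopressin-family receptor of corticotrophs, was at 15.9, 0.764, 39.6 and 97.6 CPM in the caged libraries, against 5.69, 0.349, 0.954 and 1.76 CPM in the floor-water libraries (log2 fold change 4.15, SE 1.27, edgeR adjusted p = 0.401). LEPR and AVPR1B are 11.7 and 26.2 times higher in pituitary and were highest in caged library 4. Their fold changes were 1.75 and 0.54 with the pituitary share as a covariate. PRLR, the prolactin receptor, was at 1.70, 1.81, 2.71 and 1.36 CPM in the caged libraries, against 1.11, 1.16, 0.665 and 0.830 CPM in the floor-water libraries (log2 fold change 1.01, SE 0.36, edgeR adjusted p = 0.45). The median of the receptor list was 0.21 to 0.37 when each library was left out, 0.19 with the pituitary share and 0.07 with the regional factor level as a covariate.

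Stress-related genes gave no common direction. The stress axis list had 8 of 13 members above 0 and a median of 0.07; 2 (15.4%) were higher and 2 (15.4%) lower at an unadjusted p under 0.05. Those higher were AVPR1B and POMC, and those lower were CRH and NR3C2, the mineralocorticoid receptor, which was at 27.9, 23.6, 29.6 and 27.1 CPM in the caged libraries, against 33.8, 36.3, 33.98 and 29.0 CPM in the floor-water libraries (log2 fold change -0.30, SE 0.12, edgeR adjusted p = 0.49). Genes that glucocorticoids induce had a median of 0.18, or -0.10 without caged libraries 2 and 4. FKBP5, the co-chaperone that glucocorticoids induce, was at 66.3, 174, 105 and 289 CPM in the caged libraries, against 59.8, 66.6, 124 and 117 CPM in the floor-water libraries, and caged libraries 2 and 4 were high among otherwise overlapping values. CEBPD, a leucine zipper factor, was at 7.65, 5.63, 17.3 and 26.4 CPM in the caged libraries, against 5.87, 4.06, 2.52 and 1.59 CPM in the floor-water libraries (log2 fold change 2.02, SE 0.56, edgeR adjusted p = 0.375) and is 35.5 times higher in pituitary. Immediate early genes had 15 of 20 members above 0 with a median of 0.32; 5 (25%) were higher and 1 (5%) lower at an unadjusted p under 0.05. Of the 20 members, 7 are at least 4 times higher in pituitary, and the list median was 0.26 with the pituitary share as a covariate. KLF4, a zinc finger factor, was at 2.60, 2.29, 2.35 and 2.79 CPM in the caged libraries, against 0.875, 0.763, 1.26 and 0.796 CPM in the floor-water libraries (log2 fold change 1.44, SE 0.30, edgeR adjusted p = 0.313), without overlap. KLF4 is 6.73 times higher in pituitary, and its fold change was 1.34 with that covariate. BTG2, an antiproliferative early response gene, was at 46.5, 38.9, 102 and 87.4 CPM in the caged libraries, against 42.3, 41.1, 23.4 and 19.3 CPM in the floor-water libraries. BTG2 is 10.5 times higher in pituitary, and its log2 fold change was 1.12, against 0.69 with the pituitary share as a covariate. MAFF, a small Maf factor, was lower at 26.9, 32.5, 30.1 and 37.4 CPM in the caged libraries, against 33.1, 48.8, 44.9 and 48.5 CPM in the floor-water libraries. FOS, the usual marker of recent neuronal activity, was at 103, 80.6, 117 and 75.3 CPM in the caged libraries, against 80.7, 105, 60.2 and 60.4 CPM in the floor-water libraries, and the groups overlapped.

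Genes of the photoperiod response were followed because light differed with housing. DIO2, the deiodinase that activates thyroid hormone in tanycytes, was at 49.6, 86.1, 118 and 112 CPM in the caged libraries, against 57.0, 68.4, 82.0 and 63.6 CPM in the floor-water libraries (log2 fold change 0.43, SE 0.25, edgeR adjusted p = 0.642). DIO3, which inactivates it, was at 0.439, 1.28, 15.6 and 1.33 CPM in the caged libraries, against 0.489, 0.262, 0.324 and 1.15 CPM in the floor-water libraries. SLCO1C1, a transporter of thyroid hormone at the blood-brain barrier and in tanycytes, was at 3.57, 48.9, 120.2 and 1.28 CPM in the caged libraries, against 1.16, 0.589, 0.204 and 0.322 CPM in the floor-water libraries (log2 fold change 6.31, SE 1.43, edgeR adjusted p = 0.361). DIO2 and DIO3 overlapped, with DIO3 high in caged library 3 alone, while every caged library exceeded the floor-water range for SLCO1C1, by far the most in caged libraries 2 and 3. CRYM, a thyroid hormone-binding crystallin, was at 93.4, 199.7, 1038 and 118 CPM in the caged libraries, against 126, 58.8, 72.7 and 88.7 CPM in the floor-water libraries, again with caged library 3 apart. RAX, the homeodomain factor of tanycytes, was at 0.879, 1.47, 13.6 and 1.13 CPM in the caged libraries, against 0.849, 0.262, 0.392 and 0.779 CPM in the floor-water libraries, where the lowest caged value was just above the floor-water range and caged library 3 was again the highest. With the regional factor level as a covariate the fold changes of CRYM and DIO3 had the other sign, at -0.13 and -0.72, against 2.07 and 3.06 without it. That level was itself higher on average in the caged libraries, so these changes of sign are a description only. Tanycyte and radial glia genes had 19 of 22 members above 0 and a median of 0.27. At an unadjusted p under 0.05, 8 (36.4%) were higher and 0 lower. When each library was left out the median was 0.18 to 0.36, lowest without caged library 3. It was 0.26 with the pituitary share and 0.11 with the regional factor level as a covariate. Of the 22 members, 3 are at least 4 times higher in pituitary. NOTCH2, a receptor of the Notch pathway, which keeps radial glia undifferentiated, was at 94.5, 104, 98.6 and 92.6 CPM in the caged libraries, against 79.0, 81.0, 80.3 and 76.2 CPM in the floor-water libraries (log2 fold change 0.30, SE 0.08, edgeR adjusted p = 0.375), with all caged libraries close together and above the floor-water range. For the photoperiod list 5 (31.2%) were higher and 0 lower at an unadjusted p under 0.05. Among these 5 are TTR, the choroid plexus transcript highest in caged library 2, and CGA, the alpha chain of glycoprotein hormones. CGA is 29.6 times higher in pituitary and was highest in caged library 4, at 2366 CPM. The 5 are therefore not all genes of the photoperiod response alone. The photoperiod list had a median of 0.62, 0.26 to 0.77 when each library was left out, and 0.08 with the pituitary share as a covariate.

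Clock genes, whose protein feedback loops keep daily time, mostly lay slightly below 0. Over the list 17 of 19 did so with a median of -0.15; 1 (5.26%) was higher and 0 lower at an unadjusted p under 0.05. PER3, a period gene, was at 20.8, 15.8, 24.7 and 26.1 CPM in the caged libraries, against 12.2, 15.8, 10.3 and 11.3 CPM in the floor-water libraries (log2 fold change 0.82, SE 0.20, edgeR adjusted p = 0.361). Caged library 2 was level with floor-water library 2, and the other caged libraries lay above the floor-water range. PER3 is 4.44 times higher in pituitary, and its fold change was 0.64 with the pituitary share as a covariate. PER2 was at 50.7, 43.7, 48.0 and 33.6 CPM in the caged libraries, against 58.7, 46.1, 46.7 and 47.8 CPM in the floor-water libraries. CRY1, a cryptochrome repressor, was at 54.0, 59.8, 66.4 and 63.1 CPM in the caged libraries, against 68.4, 59.5, 65.7 and 59.6 CPM in the floor-water libraries. The activator ARNTL was at 30.7, 25.5, 34.7 and 38.1 CPM in the caged libraries, against 34.4, 33.9, 35.5 and 31.7 CPM in the floor-water libraries, and its relative ARNTL2 at 39.7, 40.2, 43.3 and 50.8 CPM in the caged libraries, against 26.3, 31.9, 23.3 and 46.6 CPM in the floor-water libraries (log2 fold change 0.44, SE 0.21, edgeR adjusted p = 0.559). All 4 overlapped, ARNTL2 through floor-water library 4. Among retinal and opsin genes, BCO2, which cleaves carotenoids, was at 83.1, 60.2, 92.3 and 203 CPM in the caged libraries, against 39.6, 37.9, 37.9 and 31.3 CPM in the floor-water libraries (log2 fold change 1.58, SE 0.33, edgeR adjusted p = 0.313), without overlap, and it is 12.6 times higher in pituitary. Its fold change was 0.97 with the pituitary share as a covariate. TH, the rate-limiting enzyme of dopamine synthesis, was at 7.99, 28.1, 11.96 and 3.77 CPM in the caged libraries, against 3.55, 3.73, 5.83 and 76.2 CPM in the floor-water libraries, high in caged library 2 and floor-water library 4 as EN1 and TPH2 were.

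Genes of neuronal signalling lay below 0 in most lists. Of the synaptic vesicle genes 25 of 26 lay below 0 with a median of -0.23; 0 were higher and 5 (19.2%) lower at an unadjusted p under 0.05. NSF, the ATPase that recycles fusion complexes, was at 361, 352, 296 and 320.0 CPM in the caged libraries, against 416, 417, 438 and 391 CPM in the floor-water libraries (log2 fold change -0.32, SE 0.09, edgeR adjusted p = 0.381), and its partner NAPB was at 283, 305, 242 and 233 CPM in the caged libraries, against 328, 362, 370.3 and 319.7 CPM in the floor-water libraries. Neither overlapped. PCLO, an active-zone scaffold, was at 35.2, 27.4, 56.3 and 45.3 CPM in the caged libraries, against 70.4, 62.6, 59.2 and 64.5 CPM in the floor-water libraries (log2 fold change -0.64, SE 0.20, edgeR adjusted p = 0.414), also without overlap. SNAP25, a membrane fusion protein of nerve terminals, was at 1658, 1504, 1039.6 and 1164 CPM in the caged libraries, against 1695, 2047, 1896 and 1684 CPM in the floor-water libraries, with caged library 3 lowest. Of the potassium channels 25 of 30 lay below 0 with a median of -0.23; 0 were higher and 8 (26.7%) lower at an unadjusted p under 0.05. KCNC2, which lets neurons fire fast, was at 177, 181, 176 and 153 CPM in the caged libraries, against 221, 251, 232 and 187 CPM in the floor-water libraries (log2 fold change -0.37, SE 0.11, edgeR adjusted p = 0.386). KCNQ3, a subunit of the M-current channel, was at 70.3, 48.7, 59.1 and 45.8 CPM in the caged libraries, against 83.2, 72.5, 95.5 and 60.5 CPM in the floor-water libraries. KCNC2 kept the groups apart, and KCNQ3 overlapped. HCN4, a pacemaker channel, averaged 39.6 ± 3.77 CPM in the caged libraries, against 52.1 ± 5.57 CPM in the floor-water ones (SD, n = 4 each), without overlap. Of the GABA, glutamate and glycine genes 32 of 38 lay below 0, with a median of -0.17; 0 were higher and 4 (10.5%) lower at an unadjusted p under 0.05.

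Regulators of G protein signalling were mixed. Of the list 16 of 24 lay below 0 with a median of -0.14; 2 (8.33%) were higher and 6 (25%) lower at an unadjusted p under 0.05. GNB5, the beta subunit that pairs with several RGS proteins, was at 214, 185, 175 and 185 CPM in the caged libraries, against 251, 240.0, 237 and 218 CPM in the floor-water libraries (log2 fold change -0.32, SE 0.09, edgeR adjusted p = 0.386), without overlap. RGS2 stood the other way at 23.9, 24.2, 31.6 and 72.4 CPM in the caged libraries, against 17.6, 14.5, 16.6 and 19.0 CPM in the floor-water libraries (log2 fold change 1.17, SE 0.34, edgeR adjusted p = 0.392), highest in caged library 4 and 10.6 times higher in pituitary. Many of these genes are low in pituitary: 19 of the 26 vesicle genes and 14 of the 30 potassium channels are at least 4 times higher in hypothalamus. With the pituitary share as a covariate the medians were -0.10 for vesicle genes, -0.21 for potassium channels and -0.16 for transmitter genes. Without caged library 4 they were -0.14, -0.19 and -0.13. Pan-neuronal genes had a median of -0.18, -0.31 to -0.05 when each library was left out, and -0.01 with the covariate, and their summed CPM were 19502, 19829, 15043 and 12786 CPM in the caged libraries, against 18862, 20833, 18244 and 18629 CPM in the floor-water libraries. The sum was lowest in caged libraries 3 and 4, the 2 with the highest pituitary shares.

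Ciliated ependyma, the cells that line the ventricles and move cerebrospinal fluid, leaned upward. Of the list 25 of 26 lay above 0 with a median of 0.97; 16 (61.5%) were higher and 0 lower at an unadjusted p under 0.05. Summed CPM of the list were 529, 626, 494 and 366 CPM in the caged libraries, against 401, 386, 346 and 353 CPM in the floor-water libraries. The sum overlapped between groups only through caged library 4, the lowest caged one. CFAP65, an axonemal protein, was at 13.2, 16.2, 11.2 and 5.98 CPM in the caged libraries, against 4.94, 2.22, 0.665 and 2.96 CPM in the floor-water libraries (log2 fold change 2.11, SE 0.54, edgeR adjusted p = 0.375), and CFAP43, another, was at 7.21, 9.55, 7.30 and 5.02 CPM in the caged libraries, against 3.94, 2.42, 3.22 and 2.08 CPM in the floor-water libraries (log2 fold change 1.32, SE 0.28, edgeR adjusted p = 0.319). Both were without overlap. The list median was 0.98 with the pituitary share and 0.68 with the regional factor level as a covariate. Of its 26 genes tested, 1 is at least 4 times higher in pituitary, namely CFAP65, with a ratio of 5.89.

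Matrix genes had 28 of 36 members above 0 with a median of 0.39; 15 (41.7%) were higher and 0 lower at an unadjusted p under 0.05. LAMA2, a laminin chain of basement membranes, was at 8.95, 25.4, 14.8 and 23.5 CPM in the caged libraries, against 7.46, 5.82, 8.33 and 6.81 CPM in the floor-water libraries (log2 fold change 1.35, SE 0.31, edgeR adjusted p = 0.361), and MMP2, a gelatinase, was at 9.69, 14.3, 17.0 and 17.3 CPM in the caged libraries, against 6.64, 6.37, 8.86 and 7.01 CPM in the floor-water libraries (log2 fold change 1.01, SE 0.22, edgeR adjusted p = 0.313). Neither overlapped, and both were lowest of their group in caged library 1. OGN, osteoglycin, a small proteoglycan of meningeal fibroblasts, was at 3.16, 11.4, 6.005 and 1.48 CPM in the caged libraries, against 0.489, 0.262, 0.937 and 0.830 CPM in the floor-water libraries (log2 fold change 3.12, SE 0.66, edgeR adjusted p = 0.313), highest in caged library 2. Summed matrix CPM overlapped, at 2123 to 2493 CPM in the caged libraries and 2014 to 2358 CPM in the floor-water libraries. Of the 36 matrix genes, 10 are at least 4 times higher in pituitary, and the median was 0.29 with the pituitary share as a covariate. For junction and epithelial genes 8 (27.6%) were higher and 0 lower at an unadjusted p under 0.05. They had a median of 0.23, 0.07 without caged library 4 and 0.12 with the pituitary share as a covariate. Of the 29 junction and epithelial genes tested, 9 are at least 4 times higher in pituitary. CLDN1, a tight junction claudin, was at 11.7, 5.61, 73.0 and 86.3 CPM in the caged libraries, against 5.02, 3.45, 3.51 and 4.66 CPM in the floor-water libraries (log2 fold change 3.41, SE 0.80, edgeR adjusted p = 0.361). It was highest in caged libraries 3 and 4, those with the highest pituitary shares. The part of pituitary transcripts in its difference was not tested. The mural and fibroblast-like list had 14 of 17 members above 0; 5 (29.4%) were higher and 0 lower at an unadjusted p under 0.05. Its median was 0.32, 0.15 to 0.53 when each library was left out, and 0.03 with the regional factor level as a covariate.

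Genes of protein synthesis and of respiration stood on opposite sides of 0 with small shifts. Cytosolic ribosomal proteins had 61 of 62 members above 0 and a median of 0.26; 22 (35.5%) were higher and 0 lower at an unadjusted p under 0.05. The median was 0.16 without caged library 4 and 0.13 without caged libraries 2 and 4. Their summed CPM were 17115, 19275, 18439 and 22994 CPM in the caged libraries, against 15584, 16321, 15857 and 17180.1 CPM in the floor-water libraries. The sum was highest in caged library 4, and floor-water library 4 exceeded caged library 1. Single ribosomal genes share reads with near-identical copies and are uncertain. Nuclear-encoded genes of oxidative phosphorylation had 51 of 55 members below 0 and a median of -0.18; 0 were higher and 11 (20%) lower at an unadjusted p under 0.05. NDUFS7, a subunit of complex I, was at 114, 125, 96.05 and 102 CPM in the caged libraries, against 138, 169, 135 and 137 CPM in the floor-water libraries (log2 fold change -0.41, SE 0.12, edgeR adjusted p = 0.386), and UQCRH, a subunit of complex III, at 503.8, 357, 438 and 367 CPM in the caged libraries, against 536, 547, 499 and 633 CPM in the floor-water libraries (log2 fold change -0.41, SE 0.13, edgeR adjusted p = 0.416). The respiratory median was -0.05 with the regional factor level as a covariate and -0.18 without caged library 4. Glycolytic and hypoxia genes had a median of -0.07; 0 were higher and 3 (15%) lower at an unadjusted p under 0.05, namely LDHB, PKM and the glucose transporter SLC2A1. SLC2A1 was at 239, 230.4, 243 and 205 CPM in the caged libraries, against 265, 264, 257 and 298 CPM in the floor-water libraries.

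Lists of protective and proliferative genes had medians near 0. Antioxidant and selenoprotein genes had 17 of 29 members above 0 with a median of 0.04; 2 (6.90%) were higher and 1 (3.45%) lower at an unadjusted p under 0.05. Beside GPX3, the mitochondrial superoxide dismutase SOD2 was lower at 254, 279, 282 and 319 CPM in the caged libraries, against 321, 326, 372 and 343 CPM in the floor-water libraries (log2 fold change -0.26, SE 0.10, edgeR adjusted p = 0.457), without overlap. Heat shock genes had a median of -0.10; 2 (7.14%) were higher and 1 (3.57%) lower at an unadjusted p under 0.05. SERPINH1, the collagen chaperone, was at 43.8, 30.5, 60.6 and 27.7 CPM in the caged libraries, against 16.6, 26.8, 23.7 and 18.7 CPM in the floor-water libraries (log2 fold change 0.92, SE 0.26, edgeR adjusted p = 0.386), and HSPH1, an HSP110 chaperone, was at 236, 248, 200.3 and 206 CPM in the caged libraries, against 320.4, 265, 293 and 249 CPM in the floor-water libraries (log2 fold change -0.34, SE 0.11, edgeR adjusted p = 0.443). Both kept the groups apart only just, at 27.7 CPM caged against 26.8 CPM floor-water for SERPINH1 and 248 CPM caged against 249 CPM floor-water for HSPH1. Lists for the unfolded protein response, sterol synthesis, cell division and innate immunity had medians between 0.00 and 0.08. A single member of these 4 lists reached an unadjusted p under 0.05, SOCS3, a suppressor of cytokine signalling, at 1.82, 1.68, 3.20 and 2.91 CPM in the caged libraries, against 0.875, 1.40, 1.64 and 1.22 CPM in the floor-water libraries.

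**Figure D5:**
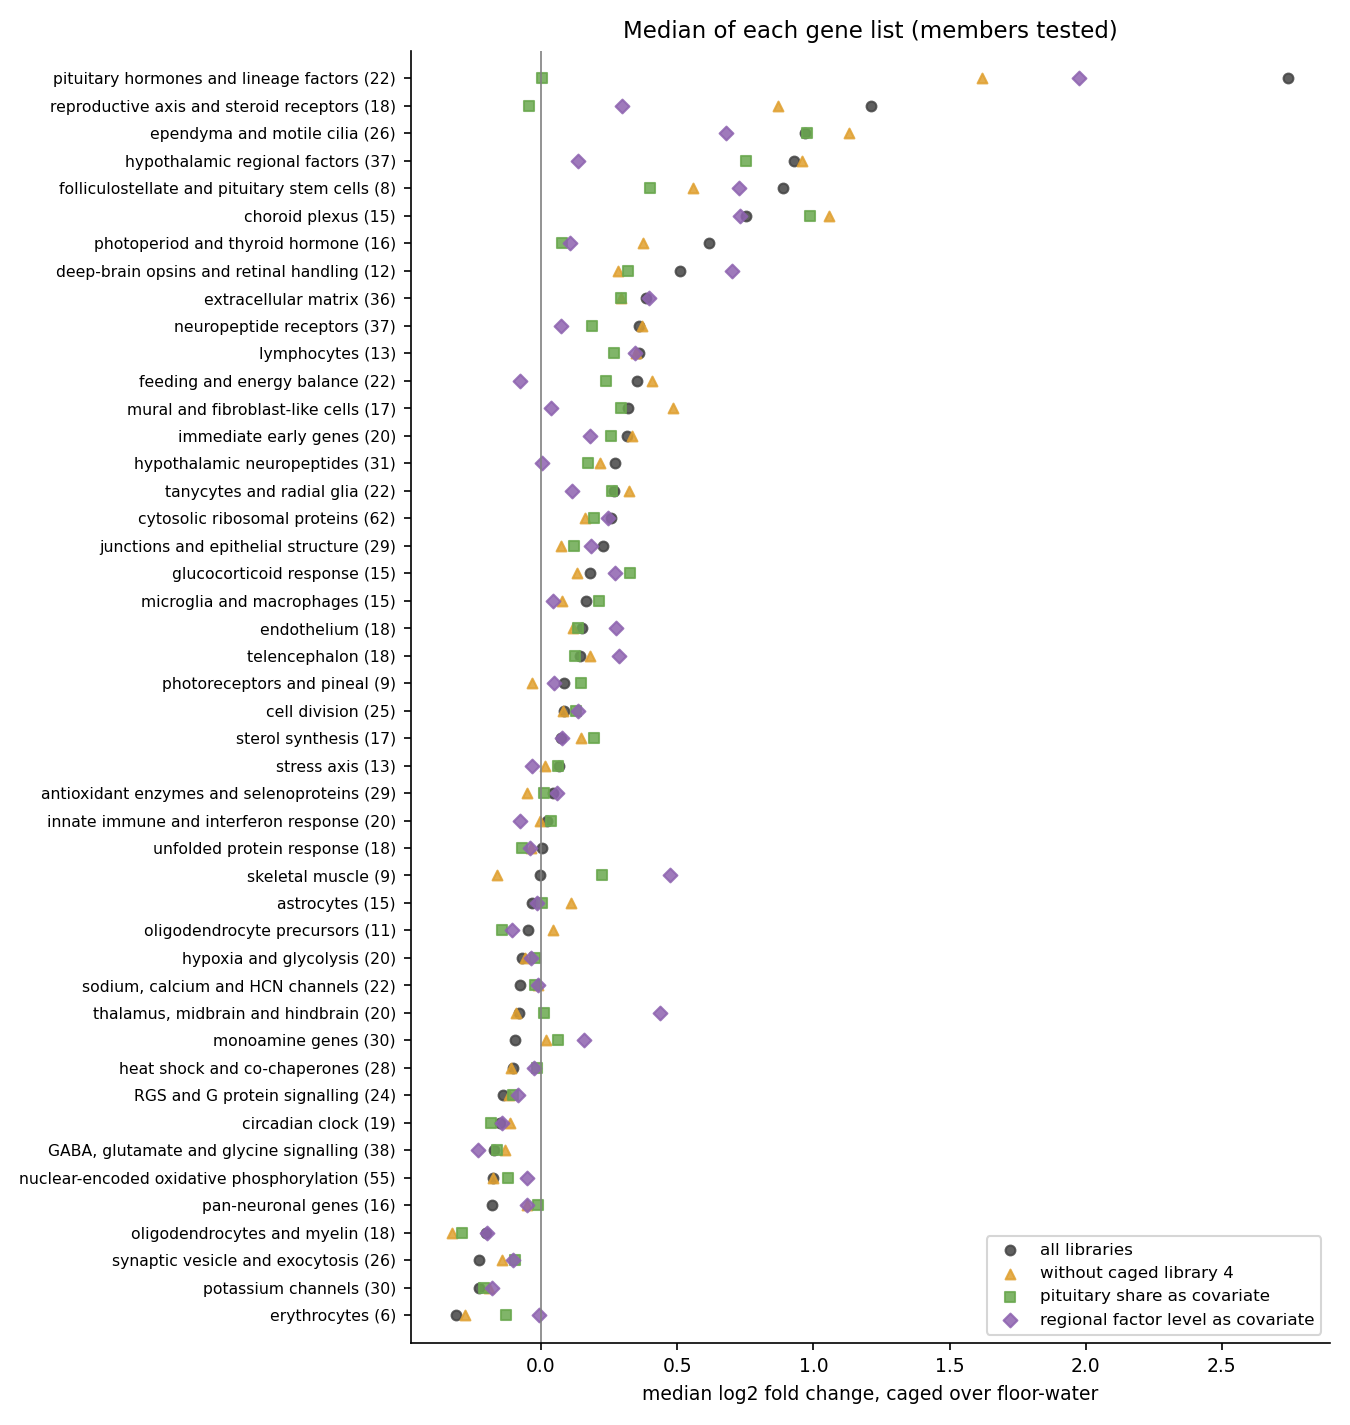
Median log2 fold change, caged over floor-water, of each of the 46 gene lists (number of members tested in brackets). Grey circles are all 8 libraries, orange triangles the fit without caged library 4, green squares the fit with the pituitary share and purple diamonds the fit with the regional factor level as covariate. The pituitary share is built from members of the pituitary list and the regional factor level from 34 of the 37 regional factors, so the medians of these lists with their own covariate, 0.00 and 0.13, are no result. Ependyma and cilia have 0.97 with all libraries and 0.68 with the regional factor level.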

How the data were processed

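RNA sequencing of hypothalamus and pituitary gave 16 libraries, of which the 8 hypothalamus libraries were compared and the 8 pituitary libraries served to measure pituitary transcripts. The authors deposited counts and FPKM (a level per length and per depth) for 24263 genes, per the file headers. Tools listed in the submitters' processing notes, without settings or order, are StringTie 1.3.4d, HISAT2, DESeq2 and cutadapt. The genome build and the use of strand are not given in the sources used here, so overlapping and antisense genes are uncertain. The deposited fold and p columns were not used.

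Counts were tested in edgeR 4.0.16 (R 4.3.3) with TMM scaling, its default filter on low counts and the quasi-likelihood test, and p-values were adjusted by the Benjamini-Hochberg method and called at 0.05. DESeq2 1.42.0 and limma 3.58.1 were alternatives, as were other scalings and filters, covariates and leaving out each library. The pituitary share and regional factor level entered as covariates. Both were higher on average in the caged libraries, so fits with them do not separate them from housing. The scripts were tested on simulated data. Intervals and limits from counts cover counting error only. Library totals of 38853215 to 59413096 counts set the precision.

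The genes named are, among genes whose groups do not overlap and whose FPKM averages at least 1 in a group, the 15 with the smallest p in each direction, then fixed genes of interest and the 4 smallest p-values of each of 46 lists. Others were chosen after their values were seen and are marked so. The members and lists were chosen with earlier results of these data known. Gene symbols came from the deposited table for 12400 genes and from a RefSeq gene table (names only) for 537 more. A result for 1 gene that the rule names is not reported here.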

Additional observations from a re-analysis of the deposited data

Results flagged for a closer look

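In groups of 4 libraries, single values stood apart from the other 3 by more than Dixon's 95% critical value for the gap over the group's range. Chance flags about 1 in 20 groups where values are normally distributed. Whether these CPM are so distributed was not tested, so that rate is only a rough guide here. Of 424 groups, those of genes that the rule names and of both covariates, 39 did so. A further 44 groups belong to genes singled out after their values were seen, partly for such libraries, so the 18 of them that did so cannot be set against chance. The genes are not independent and share libraries. Values are in CPM, and no explanation was tested.

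Caged library 1 was the highest of its group at 231 CPM for SCN8A. Caged library 1 was the lowest of its group at 81.6 CPM for RRM1. Caged library 2 was the highest of its group at 14163 CPM for TTR, 2417 CPM for TF, 19.3 CPM for EN1, 76.4 CPM for TPH2, 133 CPM for GRP and 11.97 CPM for KCNJ13. Caged library 2 was the lowest of its group at 21.4 CPM for RFX2. Caged library 3 was the highest of its group at 14.2 CPM for AGRP, 15.6 CPM for DIO3, 13.6 CPM for RAX, 971 CPM for SLC1A2, 53.2 CPM for JCHAIN, 1038 CPM for CRYM, 25.3 CPM for TBX3, 5.18 CPM for FEZF2 and 111 CPM for UCN3. Caged library 4 was the highest of its group at 19.1 CPM for CSF3R, 28.0 CPM for CDH1, 22.4 CPM for PLVAP, 20.9 CPM for LEPR, 72.4 CPM for RGS2 and 116 CPM for CRELD2. Caged library 4 was the lowest of its group at 6.58 CPM for FRMD4B.

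Floor-water library 1 was the highest of its group at 512 CPM for PRL, 124 CPM for NPVF, 2.65 CPM for PMCH, 41.2 CPM for GAL, 58.7 CPM for PER2, 2118 CPM for CHGA, 126 CPM for CGA, 9.75 CPM for NR5A1 and 2.91 CPM for DSP. Floor-water library 1 was also the highest of its group at 1.80 CPM for NKX2-1, 6.97 CPM for FEZF1, 1.44 CPM for FEZF2, 5.02 CPM for OTP, 3.65 CPM for SIX6, 3.65 CPM for HMX3, 91.6 CPM for PDYN and 33.4 CPM for UCN3. Floor-water library 2 was the highest of its group at 169 CPM for NDUFS7 and 19.2 CPM for LOC113842051. Floor-water library 2 was the lowest of its group at 5.54 CPM for SOX6, 0.872 CPM for ESR1 and 192 CPM for SCN8A. Floor-water library 3 was the highest of its group at 3.03 CPM for COL6A2 and 2.39 CPM for TNNI2. Floor-water library 3 was the lowest of its group at 53.2 CPM for SOD3. Floor-water library 4 was the highest of its group at 76.2 CPM for TH, 0.610 CPM for MSX1, 31.6 CPM for FRZB, 1.90 CPM for OXTR, 29.4 CPM for EN1, 82.0 CPM for TPH2 and 388 CPM for GRP.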

How the results depend on the processing

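No gene passed the adjusted threshold with all libraries in edgeR. DESeq2 called 243 genes, limma on log2(FPKM + 0.1) 1 (LOC113842204), the fit of all 16 libraries 1 (CERKL), and the fit without caged libraries 2 and 4 called 6 (FOXN3, TMEM245, RLIM, MAP2K4, LOC113844800 and LOC101798753), 1 higher and 5 lower. Leaving out each library in turn gave 0 to 1 calls, the 1 being LOC113842051 without floor-water library 2. Alternatives chosen after seeing the data gave 1 call without floor-water libraries 2, 3 and 4 (again LOC113842051), where the lone floor-water library is assumed to vary like the caged ones, 127 in DESeq2 with the pituitary share as a covariate (80 higher, 47 lower, 68 shared with the 243) and 248 in DESeq2 without caged library 4 (181 higher, 67 lower, 141 shared). The cause of these differences was not tested. Genes lower at an unadjusted p under 0.05 numbered 220 with all 16 libraries, 234 with the regional factor level as a covariate, 212 without floor-water libraries 2, 3 and 4, and 357 to 655 when each library was left out (357 without floor-water library 3), against 574. Genes higher numbered 576 with the pituitary share, 421 with the regional factor level, 556 without floor-water libraries 2, 3 and 4, and 658 to 960 when each library was left out, against 889. With the replicate block there were 813 higher and 797 lower and 0 adjusted calls. The same-number correlations of deviations were -0.0221, 0.103, -0.0129 and 0.160 for numbers 1 to 4, and libraries 2 and 4 but not 1 and 3 correlated best with their own number, so the numbers were not taken to pair libraries. The 30 genes named first kept their direction in every setting, which their choice for absence of overlap in the same counts largely fixes. Of 6408 recomputed values of 232 named genes, 103 in 37 genes had the other sign, none of them called, and 155 passed the adjusted threshold. The medians of 28 of 46 lists kept their side of 0, and 97 of 1288 recomputed medians moved by at least the spread between libraries. The median fold change of all genes lay between -0.02 and 0.05.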
